A study of Mus musculus with 25 samples.

Results

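The transcripts described here come from 42 genes that carry out mitosis, from the cyclin B kinase that starts it to the proteins that cut the daughter cells apart. The genes were listed by name and sorted by role into 9 classes. A named array probe was found for 41 of the 42, among 17016 named genes in all. Cdkn3, a phosphatase that acts on cyclin-dependent kinases, had no named probe and has no value here. Each gene was read from its probe of highest mean signal, and all 41 passed the filter on dim probes in each comparison (a probe had to be marked well above background in a number of arrays no smaller than the smallest group of the fit).

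The study measured RNA of whole liver from untreated mice on 25 single-colour arrays. It compared littermates with and without a deletion of Mcl-1 (Mcl1), which encodes a protein of the BCL-2 family that holds back apoptosis, and the deletion is described as specific to hepatocytes. The 2 month groups held 2 wild-type mice (animals 31 and 34), 3 mice labelled hemizygous for Mcl-1 (27, 28 and 30) and 3 labelled Mcl-1 ko (137, 64 and 69). The 12 month groups held 3 wild-type mice (552, 641 and 1110) and 4 knockout mice (1109, 638, 702 and 793), and at 8 months there were 3 knockout mice (1347, 1287 and 934). Each of these 7 older knockout mice gave 1 sample of tumor tissue, labelled hepatocellular carcinoma, and 1 sample of the non-tumor tissue beside it. The labels give no wild-type mice of 8 months, no sex and no strain, and what drives the deletion is not given in the sources used here. The deletion was in hepatocytes while whole liver, with all its other cell types, was measured. In such samples fewer cells of a type and less RNA per cell cannot be told apart.

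Most hepatocytes of an adult liver do not divide, and transcripts of mitosis genes are low until hepatocytes re-enter the cell cycle, for example after the loss of other hepatocytes. Dividing cells switch these genes on together late in the cell cycle. Their promoters are known for a CCAAT box, which binds NF-Y, and for a cell cycle genes homology region (CHR), which binds the MuvB complex with its partners B-MYB and FOXM1. Several of the proteins are destroyed at the end of mitosis, when the anaphase-promoting complex marks them with ubiquitin.

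Promoter windows of RefSeq (GRCm38.p6, 250 bases before to 50 after the start) were found for 34 of the 42 genes, and the 120 bases before the start are shown for 8 of them. Cdk1, Cdc20, Ube2c and Top2a are shown because they hold both boxes, Ccnb2 and Aurka because they hold CCAAT boxes with no CHR in the stretch shown, and Birc5 and Pttg1 because they hold neither there. Letters in capitals mark CCAAT (or ATTGG on the other strand) and the CHR, searched as TTTGAA and TTCGAA on both strands. The windows are chr10:69352913-69353032 (minus strand) for Cdk1, chr9:70421555-70421674 (minus) for Ccnb2, chr4:118437344-118437463 (minus) for Cdc20 and chr2:164769809-164769928 (plus) for Ube2c. Those of the other 4 genes are chr11:99024190-99024309 (minus) for Top2a, chr2:172370571-172370690 (minus) for Aurka, chr11:117849117-117849236 (plus) for Birc5 and chr11:43425982-43426101 (minus) for Pttg1.
Cdk1: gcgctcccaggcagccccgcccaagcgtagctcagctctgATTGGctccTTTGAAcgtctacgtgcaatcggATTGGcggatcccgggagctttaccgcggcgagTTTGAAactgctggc
Ccnb2: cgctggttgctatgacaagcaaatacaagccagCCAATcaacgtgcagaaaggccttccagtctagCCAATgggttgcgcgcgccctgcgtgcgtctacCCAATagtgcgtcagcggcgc
Cdc20: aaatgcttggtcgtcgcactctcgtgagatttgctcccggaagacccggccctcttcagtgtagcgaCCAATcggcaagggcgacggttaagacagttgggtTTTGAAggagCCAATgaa
Ube2c: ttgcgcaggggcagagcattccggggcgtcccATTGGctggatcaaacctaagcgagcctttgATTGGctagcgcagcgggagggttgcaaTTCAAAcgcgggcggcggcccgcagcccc
Top2a: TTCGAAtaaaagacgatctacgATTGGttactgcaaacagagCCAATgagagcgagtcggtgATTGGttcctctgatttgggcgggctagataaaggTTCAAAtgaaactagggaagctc
Aurka: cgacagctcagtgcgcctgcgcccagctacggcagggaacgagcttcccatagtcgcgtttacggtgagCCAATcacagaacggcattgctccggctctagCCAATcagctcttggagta
Birc5: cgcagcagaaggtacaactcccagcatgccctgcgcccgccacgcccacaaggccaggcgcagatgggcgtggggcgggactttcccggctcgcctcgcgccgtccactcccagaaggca
Pttg1: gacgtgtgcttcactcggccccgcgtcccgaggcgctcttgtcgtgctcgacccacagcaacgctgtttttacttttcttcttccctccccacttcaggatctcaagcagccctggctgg

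A CCAAT box lay in the window of 25 of the 34 genes (73.5%), against 41.1% of 27025 genes with a window. A CHR lay in 25 of the 34 (73.5%), against 21.7% of all genes. Counting only the bases before the start left 12 of 34 with a CHR (35.3%, against 19.6%), since the other genes hold it only in the 50 bases after it. Before the start, 11 of the 34 (32.4%) had both in 1 window, against 7.0% of all genes. An E2F site, searched as TTTGGCGC, TTTCCCGC, TTTCGCGC and TTTGCCGC on both strands, lay in 1 of the 34 (2.9%), against 2.6% of all genes. Short motifs match by letters alone, and the match of a window says nothing of what binds there.

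Levels are given as log2 of the probe's signal minus the 75th percentile of its array, so that a probe at 0 was as bright as that percentile. A level is compared only with the level of the same gene on other arrays. Mcl1 itself stood at 4.02 and 4.50 in the young wild-type mice, at 3.24, 3.20 and 3.58 in the hemizygous and at 1.84, 1.53 and 2.09 in the knockout mice. In the older wild-type mice it was at 4.47, 3.88 and 4.50. The older knockout animals had 3.06, 2.83 and 1.68 (8 months) and 2.82, 2.39, 2.54 and 2.73 (12 months) in non-tumor tissue, and 2.96, 2.58 and 1.79 at 8 and 2.15, 1.46, 2.83 and 2.70 at 12 months in tumors. Every knockout array lay below every wild-type array. Whether the probe lies in the deleted part of the gene is not given in the sources used here. The young knockout mice differed from wild type by -2.44 ± 0.37 (SE, adjusted p 0.046) and the 12 month tumors by -1.99 ± 0.35 (SE, adjusted p 0.038). The difference of 12 month non-tumor tissue from wild type, -1.66 ± 0.31 (SE, adjusted p 0.094), did not pass the threshold of 0.05. These p-values are from limma, two-sided, adjusted with Benjamini-Hochberg over all genes, and over the alternative settings the adjusted p ran from 0.0036 to 0.63 at 2 months and from 0.0066 to 0.24 in the tumors.

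Whole arrays differed within groups. The share of all probes well above background ran from 60.3% to 76.3% on 24 of the arrays and was 84.9% on wild-type animal 641. Wild-type animal 1110 had the lowest level of all 25 arrays in 35 of the 41 mitosis genes, and only 19 of the 41 were well above background there, against 28 to 41 on the other arrays. Knockout animal 64 had the highest level of all 25 arrays in 25 of the 41. The arrays lay on 8 slides scanned on 2 days, and the second day held wild-type animals 552 and 1110 and the tumor of animal 1347. All 12 measured hepatocyte markers were well above background on every array, at a mean level between 6.81 and 8.03.

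In young wild-type liver the median of the 41 genes was at -3.36 and -3.60, and in hemizygous liver at -2.98, -3.29 and -3.53. The 3 young knockout livers had medians of -1.25, 0.40 and -2.17. All 3 lay above all wild-type and hemizygous livers, but they also lay far from each other. Wild-type liver of 12 months had -3.06, -2.67 and -5.39, the last in animal 1110. Non-tumor knockout liver had -1.42, -0.82 and -2.15 at 8 months and -1.97, -2.49, 0.28 and -0.72 at 12 months. The tumors had -0.87, -0.83 and -2.44 at 8 months and -0.26, -1.97, 0.44 and -0.96 at 12 months. Each of the 17 knockout samples had a higher median than each of the 8 samples of the other genotypes. In some groups 1 animal was highest or lowest in most of the genes. Animal 64 was the highest of its 3 mice in 40 of 41 genes and animal 69 the lowest in 39. Animal 702 was the highest of 4 in 36 genes in tumor and in 40 in non-tumor tissue. In young wild-type liver the highest sample was animal 31 in 20 genes and animal 34 in 21, and in 8 month tumors it was animal 1347 in 17 genes and animal 1287 in 21.

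**Figure D1:**
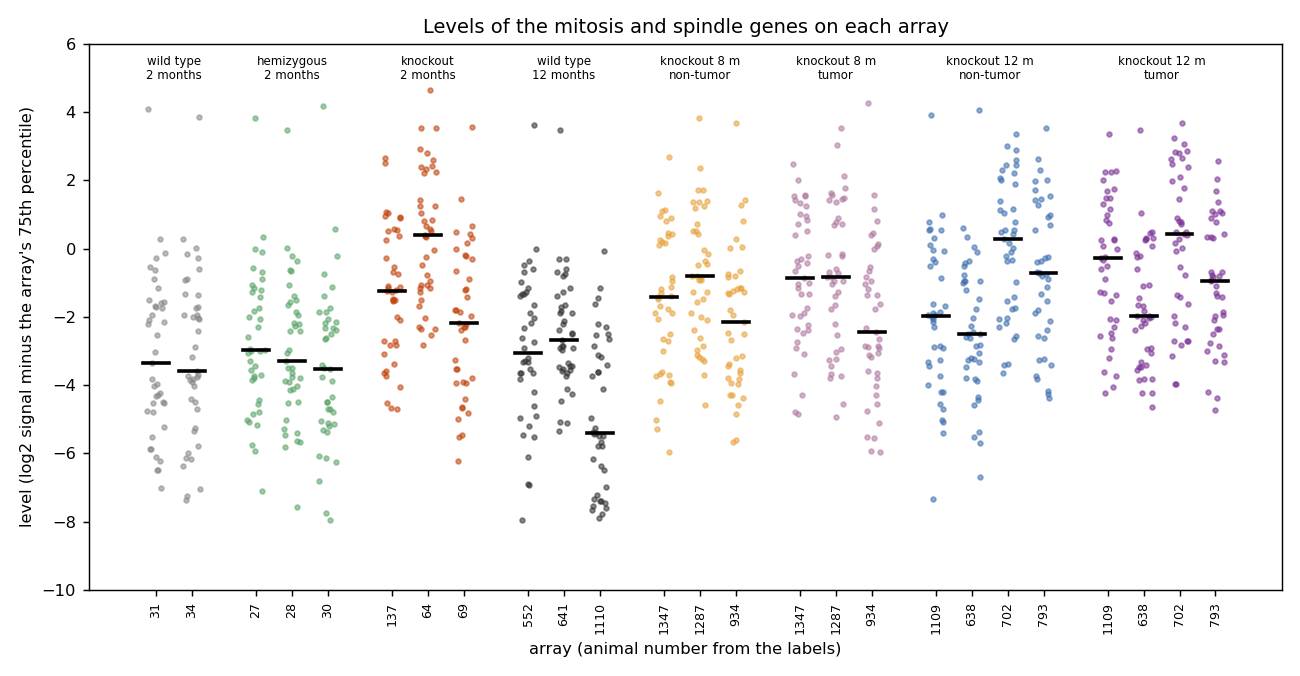
Level of each of the 41 mitosis and spindle genes (points) on each of the 25 arrays, with the median as a bar. The vertical axis is log2 signal minus the array's 75th percentile and the horizontal axis lists animals by group. All knockout medians lie between -2.49 and 0.44, above the wild-type and hemizygous medians, which lie between -5.39 and -2.67.

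**Figure D2:**
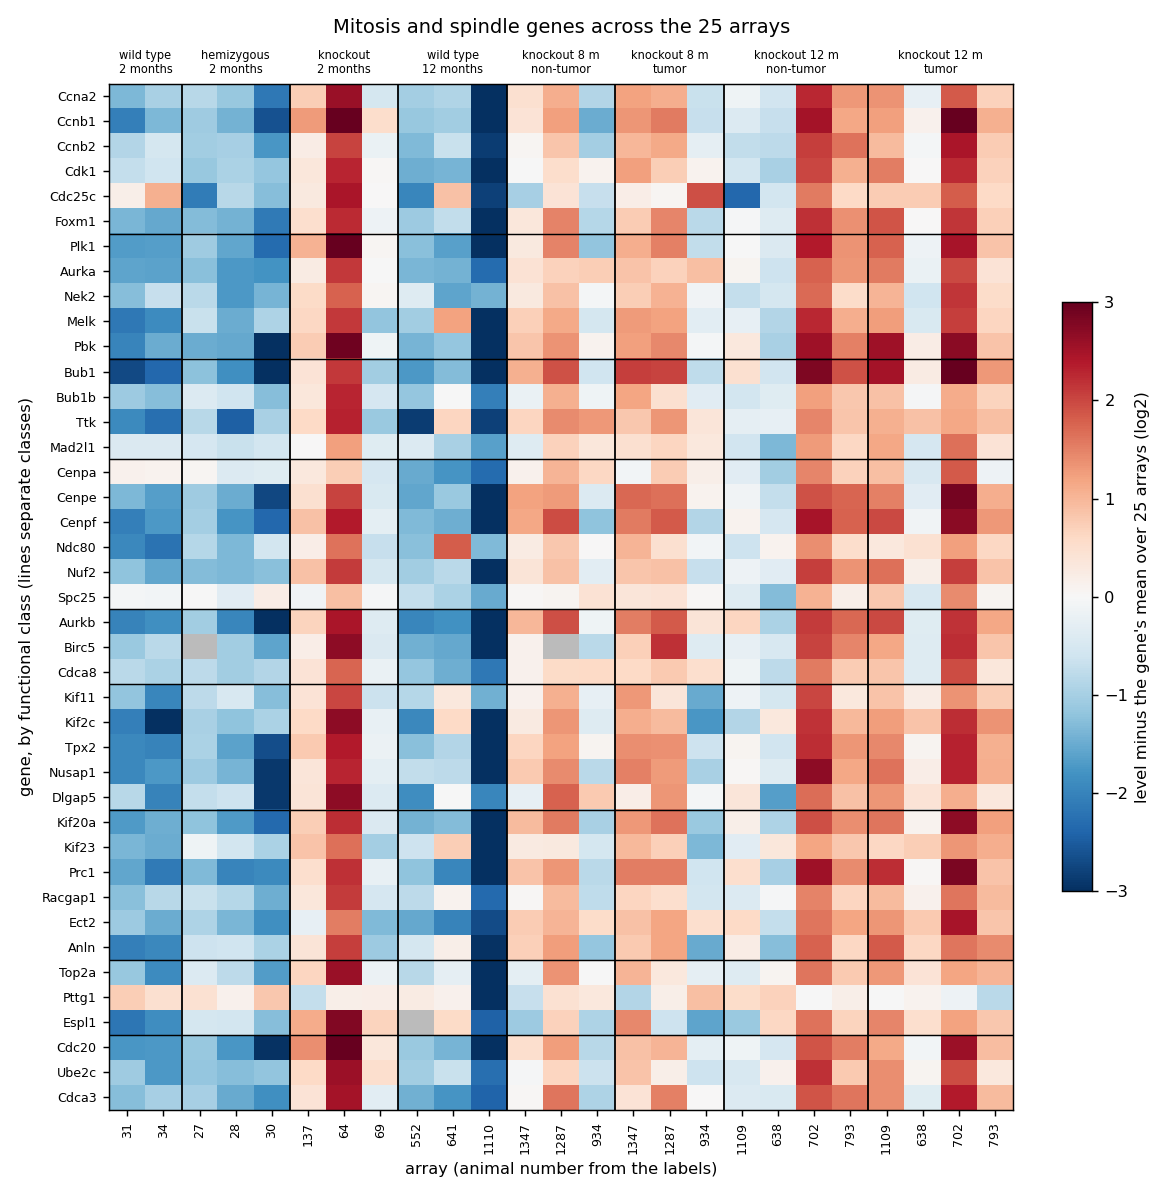
Level of each gene on each array minus that gene's mean over the arrays (colour, log2, drawn from -3 to 3), with genes by class in rows and arrays by group in columns. Grey cells are spots with no value, and the row of Pttg1 does not follow the other rows.

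At 2 months the comparison asks whether loss of Mcl-1 in hepatocytes changes mitosis transcripts in young liver. The knockout mean was above the wild-type mean for 40 of 41 genes (48.9% of all genes were above 0), with a median difference of 2.32 on the log2 scale, against a median of -0.02 over all 27093 genes tested (named genes, and unnamed probes counted singly). The exception was Pttg1. In 36 genes every knockout array was above every wild-type array, which held for 17.5% of all genes (percentage of genes with no overlap in that direction). Of the 41 genes, 9 were well above background on no young wild-type array and 27 on every one. The differences of those 9 rest on dim wild-type signals. With wild type set to the lowest signal counted as well above background, they were at least 1.93-fold (Ttk) to 8.33-fold (Espl1) higher. Such bounds compare group means, and "at least" covers the dim wild-type signal but not the spread between animals. None of the 41 passed the adjusted threshold, where 0.0111% of all genes did in that direction. At an unadjusted p under 0.05, 26 of 41 were higher, against 4.53% of all genes. The lowest adjusted p was 0.28, for Espl1. Without animal 64 the median difference was 1.63, and with normexp background correction and quantile normalization it was 0.77. No slide held both groups. With slide as a block the median was 1.19, an indirect value that runs through the hemizygous mice, which shared a slide with each group.

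Against the hemizygous mice the young knockout mice had a median difference of 2.13, again with 40 of 41 genes above 0 (55.1% of all genes) and Pttg1 below. Groups did not overlap in 30 genes (16% of all genes), and 30 genes had an unadjusted p under 0.05 (4.03% of all genes). None passed the adjusted threshold, where 0.0332% of all genes did. Slide 2 held knockout animal 137 and hemizygous animals 27 and 28. There the median difference was 1.68, with 40 of 41 genes above 0, where 57.3% of all genes were above 0. The hemizygous mice differed from wild type by a median of 0.01, with 21 genes above 0 (44.2% of all genes) and 20 below. Groups did not overlap upward in 6 genes, where 8.52% of all genes did not, and none of the 41 had an adjusted or an unadjusted p under 0.05 (0% and 0.373% of all genes did, upward). Slide 1 held hemizygous animal 30 and both wild-type animals, and there the median difference was -0.47, with 12 of 41 genes above 0, where 57.2% of all genes were above 0. The comparisons with wild type and with hemizygous mice share the 3 knockout arrays.

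At 12 months the non-tumor tissue of knockout mice lay above wild-type liver in all 41 genes (44.9% of all genes were above 0), with a median difference of 2.29, against -0.09 over all genes. In 29 genes the unadjusted p was under 0.05 (8.58% of all genes), and in 23 the groups did not overlap (5.43% of all genes). None of the 41 passed the adjusted threshold, as 0.00738% of all genes did. The lowest adjusted p was 0.10, for Ect2. Without wild-type animal 1110 the median difference was 1.66, with 40 of 41 genes above 0. Without the non-tumor tissue of animal 638, 20 of the 41 were called, and without any of the other 17 arrays 0 were. The share of all genes called in these fits was not counted. Wild-type animal 641 was scanned on the same day as all 12 month knockout samples. Against it alone the median difference was 1.60, with 35 of 41 above 0, while 29.3% of all genes were, with a median of -0.7.

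The tumors of 12 month knockout mice lay above the same 3 wild-type livers in all 41 genes (48.4% of all genes were above 0), with a median difference of 2.67 (a 6.36-fold ratio), against -0.03 over all genes. In this comparison 16 of the 41 passed the adjusted threshold and rose, where 0.672% of all 28415 genes tested passed it upward. They were Ect2, Aurkb, Cdk1, Prc1, Cenpa, Aurka, Cdca8, Kif20a, Cenpe, Cenpf, Bub1, Pbk, Nuf2, Plk1, Tpx2 and Cdca3, with adjusted p from 0.027 to 0.049. At an unadjusted p under 0.05, 38 of 41 were higher (9.59% of all genes), and 31 did not overlap (8.72% of all genes). The adjusted values lay close under the threshold, and the number of calls moved between 0 and 27 with the settings. It was 0 without wild-type animal 1110, without the 12 month tumor of animal 1109 or without that of 702, and 1 without any of 12 other arrays (the 5 of young wild-type and hemizygous mice, those of young knockout animals 137 and 69, and the non-tumor tissue of animals 1287, 934, 1109, 702 and 793). It was 5 without the tumor of animal 793, 7 without that of 1287, 10 without that of 1347 and 15 to 18 without any of the 7 remaining arrays. The share of all genes called in each of these fits was not counted. The median difference was 2.08 without animal 1110. Against animal 641 alone it was 2.01 with 38 of 41 genes above 0, while 28% of all genes were, with a median of -0.68.

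**Figure D3:**
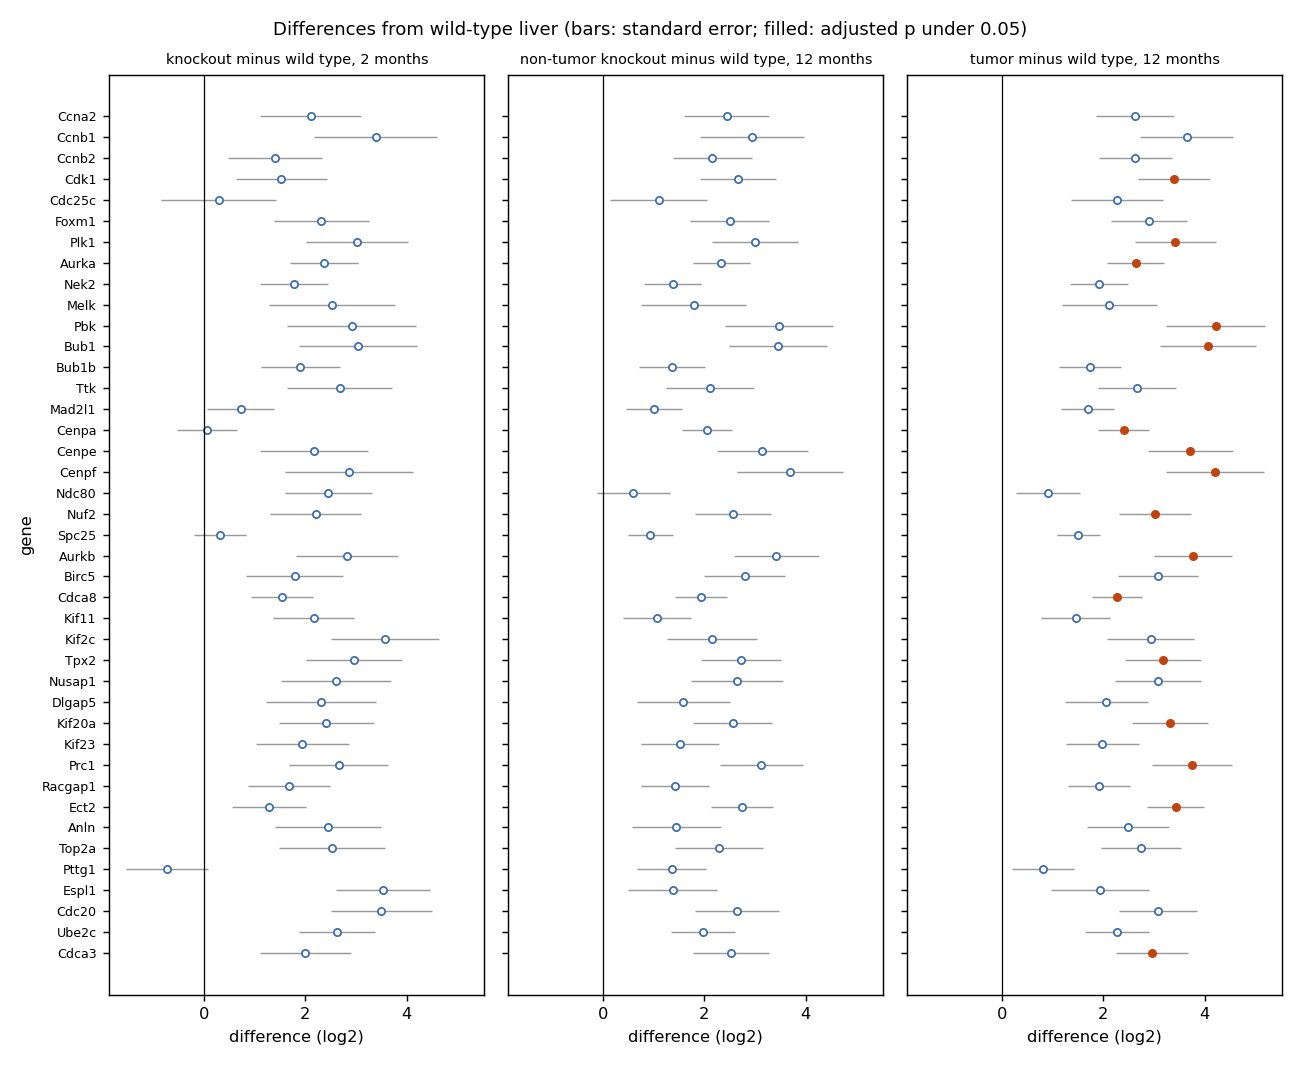
Difference from wild type of the same age for each of the 41 genes (log2, horizontal axis), in young knockout liver, in 12 month non-tumor tissue and in 12 month tumors. Circles are limma estimates, bars are standard errors, and the 16 filled circles, all in the tumor panel, have an adjusted p under 0.05.

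Markers of other cell types were read in the same comparisons with wild type. The 15 measured macrophage markers had medians of 1.52, 1.78 and 2.01 in the 3 comparisons with wild type, with 13, 15 and 15 above 0 (48.9%, 44.9% and 48.4% of all genes). Their mean level lay between -0.46 and -0.45 in young wild-type, -0.24 and -0.15 in hemizygous and 1.12 and 1.39 in young knockout liver. Of the 15, the markers well above background on no array numbered 2 in young wild-type and 1 in hemizygous liver and 0 in young knockout liver. Lyz2 (lysozyme) alone of the 15 passed the threshold in the tumors, at 2.01 ± 0.47 (SE, adjusted p 0.048), where 0.672% of all genes did, upward. At 8 months the mean lay between 0.35 and 2.12 in knockout tissue. At 12 months it lay between -1.04 and 0.94 in wild-type, 1.37 and 2.08 in non-tumor and 1.59 and 1.91 in tumor tissue. The wild-type values were 0.94 and 0.52 in animals 552 and 641 and -1.04 in animal 1110. Of the 8 neutrophil markers tested all 8 were above 0 at 2 months (48.9% of all genes), with a median of 2.21. Against hemizygous liver the median of these 8 was 1.63, again with all 8 above 0 (55.1% of all genes). In that comparison S100a8 and S100a9 passed the threshold (adjusted p 0.025 for both), where 0.0332% of all genes did, upward. The neutrophil medians were 0.48 and 0.38 at 12 months. The 14 markers of T and NK cells had medians of 0.26, 1.29 and 0.85. The 12 hepatocyte markers had medians of -0.11, -0.32 and -0.56. Of the 8 markers of stellate cells and fibroblasts all 8 were above 0 at 2 months (48.9% of all genes), with a median of 1.35. At 12 months the medians of these 8 were 0.22 and 0. One of them, Acta2 (smooth muscle actin), fell in the tumors by 1.47 ± 0.32 (SE, adjusted p 0.046), where 0.447% of all genes passed the threshold downward. Of the same 8 markers 4 were above 0 there (48.4% of all genes), the highest at 2.30, and 4 below. At an unadjusted p under 0.05, 3 were higher (9.59% of all genes) and Acta2 alone was lower. The 8 markers of cholangiocytes and progenitors had medians of 0.87, 0.77 and 0.91. Markers of B and plasma cells had medians of 0.31, 0.70 and 0.44 and those of endothelium 0.05, 0.23 and 0.07. Erythroid markers had -0.03, -0.46 and -0.55. Between tumor and non-tumor tissue the macrophage median was -0.03. Other cells that divide also carry mitosis transcripts, and the part of these cells in the results was not tested.

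The classes are taken in the order of their roles. Values of a group are listed by animal, in the order in which the animals were named above, with the same order in tumor and non-tumor tissue. Many of the genes so listed were picked for a small p against wild type, a choice that favours genes whose groups do not overlap. How many of all genes separate the knockout samples from the others in this way was not counted.

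The cyclin-dependent kinase 1 and its cyclins drive entry into mitosis. The 6 measured genes of this class had median differences from wild type of 1.82 at 2 months, 2.47 in 12 month non-tumor tissue and 2.77 in 12 month tumors, and 1 of 6, Cdk1, passed the threshold in the tumors. Cdk1 encodes the kinase. Its level was -2.16 and -2.04 in young wild-type, -2.58, -2.41 and -2.62 in hemizygous and -1.10, 0.84 and -1.42 in young knockout liver. Older wild-type liver had -2.91, -2.84 and -5.43, the last not well above background. Non-tumor tissue had -1.47, -0.92 and -1.34 at 8 months and -2.00, -2.43, 0.55 and -0.38 at 12 months, and tumors -0.21, -0.71 and -1.35 at 8 and 0.08, -1.45, 0.79 and -0.76 at 12 months. All 3 young knockout livers were above both groups of their age, and every 12 month sample of knockout mice was above every wild-type sample of that age. The tumor difference from wild type was 3.39 ± 0.71 (SE, adjusted p 0.045). A second Cdk1 probe, well above background on 8 arrays, gave 0.87 there. In 12 month non-tumor tissue against wild type it gave 0.08, where the probe used gave 2.66. At 2 months it gave 0.07 against wild type and -0.57 against hemizygous liver, where the probe used gave 1.53 and 1.97. Ccnb2, which encodes a B-type cyclin partner of that kinase, stood at -0.53 and -0.17 in young wild-type, -0.69, -0.64 and -1.39 in hemizygous and 0.58, 2.39 and 0.16 in young knockout liver. It was at -0.97, -0.30 and -2.49 in older wild-type liver. Knockout samples had 0.42, 1.20 and -0.66 at 8 months and -0.38, -0.42, 2.44 and 1.99 at 12 months outside the tumors and 1.35, 1.5 and 0.08 at 8 and 1.30, 0.31, 2.80 and 1.11 at 12 months inside. The tumors of 12 months did not overlap wild type, but their non-tumor tissue did, at animals 1109 and 638. The tumor difference of Ccnb2, 2.63 ± 0.72 (SE, adjusted p 0.067), missed the threshold.

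Ccnb1, the other B-type cyclin, differed by 3.39 ± 1.22 (SE, adjusted p 0.43) at 2 months and by 3.65 ± 0.92 (SE, adjusted p 0.056) in the tumors, where its 2 other probes gave 2.63 and 3.19. Ccna2, the A-type cyclin of S phase and early mitosis, differed by 2.11 ± 1 (SE, adjusted p 0.57) and 2.63 ± 0.77 (SE, adjusted p 0.078). Foxm1, which encodes the forkhead factor that acts on these promoters, differed by 2.32 ± 0.93 (SE, adjusted p 0.5) and 2.90 ± 0.75 (SE, adjusted p 0.059). None of these 3 genes passed the threshold in any comparison. Cdc25c, a phosphatase that activates the kinase, had the smallest difference of the class at 2 months, 0.29. Only 15 of the 25 arrays read it well above background.

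Mitotic kinases other than Cdk1 build the spindle poles and trigger later steps. The 5 genes had median differences of 2.53, 2.34 and 2.64 in the same order, and Plk1, Aurka and Pbk passed the threshold in the tumors. Aurka encodes Aurora A, a kinase of the spindle poles. Its level was -0.90 and -0.92 in young wild-type, -0.58, -1.05 and -1.12 in hemizygous and 0.93, 2.81 and 0.66 in knockout liver, and -0.69, -0.74 and -1.62 in older wild-type liver. Non-tumor tissue had 1.12, 1.38 and 1.42 at 8 months and 0.77, 0.06, 2.46 and 2.01 at 12 months, and tumors had 1.54, 1.36 and 1.58 at 8 and 2.24, 0.49, 2.67 and 1.09 at 12 months. Every knockout sample of every age was above every wild-type and hemizygous sample. Aurka differed from wild type by 2.38 ± 0.67 (SE, adjusted p 0.32) at 2 months and by 2.64 ± 0.56 (SE, adjusted p 0.045) in the tumors. Pbk encodes a kinase active in mitosis. It stood at -4.24 and -3.75 in young wild-type, at -3.74, -3.79 and -6.13 in hemizygous and at -1.49, 0.66 and -2.38 in young knockout liver. Wild-type liver of 12 months had -3.65, -3.43 and -7.59, and the lowest hemizygous and the lowest wild-type value were not well above background. Non-tumor tissue had -1.42, -0.92 and -2.15 at 8 months and -1.95, -3.23, 0.28 and -0.75 at 12 months, and tumors had -1.03, -0.83 and -2.33 at 8 and 0.29, -2.03, 0.44 and -1.40 at 12 months. The knockout samples were again all above the others, with the 12 month non-tumor tissue of animal 638 nearest to wild type. Pbk rose in the tumors by 4.22 ± 0.98 (SE, adjusted p 0.048). Plk1, the polo kinase that acts at several steps of mitosis, rose in the tumors by 3.42 ± 0.80 (SE, adjusted p 0.048). Nek2 and Melk, kinases of the centrosome and of dividing progenitor cells, differed by 1.91 and 2.12 there and missed the threshold.

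Spindle checkpoint proteins hold back the separation of chromosomes until all are attached. The 4 genes had median differences of 2.29, 1.74 and 2.20, and Bub1 passed the threshold in the tumors. Bub1 encodes a checkpoint kinase at kinetochores. No young wild-type array was well above background for it, at -6.50 and -6.15, and the hemizygous mice had -5.03, -5.64 and -7.74, of which only the first was. Young knockout liver had -3.38, -1.67 and -4.83, at least 4.5-fold above wild type when wild type is set to the lowest signal counted as well above background. The older wild types had -5.53, -5.10 and -7.66, of which only animal 641 was well above background. Non-tumor tissue had -2.72, -1.88 and -4.39 at 8 months and -3.31, -4.36, -0.99 and -1.89 at 12 months, and tumors had -1.73, -1.77 and -4.55 at 8 and -1.31, -3.55, -0.76 and -2.49 at 12 months. All knockout samples were above all others, and Bub1 rose in the tumors by 4.07 ± 0.94 (SE, adjusted p 0.048). Mad2l1, which encodes the checkpoint inhibitor of the anaphase-promoting complex, varied less. It was at -1.93 and -1.93 in wild-type, -2.00, -2.17 and -2.05 in hemizygous and -1.49, -0.25 and -1.86 in young knockout liver, and at -1.90, -2.47 and -3.13 in older wild-type liver. The knockout samples had -1.88, -0.81 and -1.14 at 8 months and -2.06, -2.83, -0.21 and -0.88 at 12 months in non-tumor and -1.01, -0.84 and -1.18 at 8 and -0.33, -1.99, 0.17 and -1.09 at 12 months in tumor tissue. The 3 young knockout values were above all controls of their age, that of animal 69 by a small margin, and at 12 months the groups overlapped. Its tumor difference was 1.69 ± 0.53 (SE, adjusted p 0.095). Bub1b, which encodes the checkpoint protein BubR1, differed by 1.90 ± 0.78 (SE, adjusted p 0.51) at 2 months and by 1.74 ± 0.62 (SE, adjusted p 0.14) in the tumors. Ttk, the kinase Mps1, was at least 1.93-fold higher in young knockout than in wild-type liver, with 2 of 3 knockout arrays well above background.

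Centromere and kinetochore proteins tie chromosomes to microtubules. The 6 genes had median differences of 2.19, 2.31 and 2.71, and Cenpa, Cenpe, Cenpf and Nuf2 passed the threshold in the tumors. Cenpf encodes a large kinetochore protein of late cell cycle. It stood at -4.03 and -3.71 in young wild-type, -3.01, -3.75 and -4.34 in hemizygous and -1.12, 0.38 and -2.29 in young knockout liver. At 12 months wild-type liver had -3.31, -3.46 and -7.41, the last not well above background. Non-tumor tissue had -0.83, -0.03 and -3.19 at 8 months and -1.89, -2.49, 0.48 and -0.23 at 12 months, and tumors -0.43, -0.15 and -2.88 at 8 and -0.01, -2.09, 0.71 and -0.68 at 12 months. All knockout samples except the non-tumor tissue of animal 934 were above all samples of the other genotypes. Cenpf differed by 4.21 ± 0.97 (SE, adjusted p 0.048) in the tumors, and a second probe, well above background on 4 arrays, gave 0.70. Cenpe, a motor that carries chromosomes to the spindle equator, was at -2.10 and -2.41 in young wild-type, -1.82, -2.26 and -3.49 in hemizygous and -0.28, 1.26 and -1.22 in young knockout liver. It was at -2.33, -1.88 and -5.39 in older wild-type liver, the last again not well above background. Non-tumor tissue had 0.45, 0.51 and -1.16 at 8 months and -0.86, -1.48, 1.16 and 0.98 at 12 months, and tumors 0.96, 0.90 and -0.66 at 8 and 0.76, -1.09, 2.10 and 0.34 at 12 months. No knockout sample overlapped another genotype. Cenpe differed by 3.72 ± 0.84 (SE, adjusted p 0.046) in the tumors, with 2.18 and 1.46 at its 2 other probes.

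Cenpa, the histone variant that marks the centromere, behaved otherwise at 2 months. It was at -1.68 and -1.70 in wild-type, -1.75, -2.21 and -2.16 in hemizygous and -1.48, -1.07 and -2.30 in knockout liver, and these groups overlapped, with a difference from wild type of 0.07 ± 0.59 (SE, adjusted p 0.99). Older wild-type liver stood at -3.32, -3.57 and -4.12. Non-tumor tissue had -1.67, -0.79 and -1.17 at 8 months and -2.14, -2.85, -0.33 and -1.11 at 12 months, and tumors -1.88, -1.03 and -1.62 at 8 and -0.90, -2.28, 0.03 and -1.95 at 12 months, all above older wild type. In tumors it rose by 2.40 ± 0.51 (SE, adjusted p 0.045). The genotype difference at 12 months exceeded that at 2 months by 1.99 ± 0.77 (SE, adjusted p 0.48), and wild-type liver of 12 months differed from that of 2 months by -1.98 ± 0.59 (SE, adjusted p 0.24), and neither passed the threshold. Unadjusted, the first had p 0.021 and the second 0.0044. Spc25, a subunit of the NDC80 complex that grips microtubules, also showed overlapping young groups, at 0.29 and 0.28 in wild-type, 0.34, 0.02 and 0.57 in hemizygous and 0.26, 1.25 and 0.31 in knockout liver. Older wild-type liver had -0.35, -0.60 and -1.15. Non-tumor tissue had 0.38, 0.44 and 0.80 at 8 months and -0.03, -0.95, 1.39 and 0.54 at 12 months, and tumors 0.72, 0.77 and 0.39 at 8 and 1.17, -0.13, 1.77 and 0.43 at 12 months. The 12 month tumors did not overlap wild type, with a difference of 1.51 ± 0.43 (SE, adjusted p 0.072). Of the other subunits of that complex, Nuf2 rose in the tumors by 3.03 ± 0.71 (SE, adjusted p 0.048). Ndc80 differed by 0.91 there and by 0.60 in non-tumor tissue, with older wild-type levels of -5.19, -2.11 and -5.26. Its level in wild-type animal 641 was above that of all 17 knockout samples.

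The chromosomal passenger complex corrects wrong attachments and then moves to the midzone. Its 3 genes had median differences of 1.79, 2.80 and 3.08, and Aurkb and Cdca8 passed the threshold in the tumors. Aurkb encodes its kinase, Aurora B. Wild-type liver had -5.51 and -5.35 at 2 months and -5.47, -5.33 and -7.34 at 12 months, none well above background, and hemizygous liver had -4.54, -5.47 and -6.81, of which only the first was. Young knockout liver had -2.83, -1.06 and -3.90. Non-tumor tissue had -2.51, -1.57 and -3.63 at 8 months and -2.87, -4.45, -1.42 and -1.79 at 12 months, and tumors -1.98, -1.66 and -3.13 at 8 and -1.52, -3.86, -1.35 and -2.35 at 12 months. All knockout arrays were well above background and above all others. With wild type set to the lowest signal counted as well above background, Aurkb was at least 6.6-fold higher at 2 months, at least 7.22-fold in 12 month non-tumor tissue and at least 9.26-fold in tumors. The adjusted p of the tumor difference was 0.045. Birc5, which encodes survivin, a passenger subunit, had -0.28 and 0.03 in young wild-type liver. Hemizygous animals 28 and 30 had -0.21 and -0.73, and the spot of animal 27 had no usable value, so that the fit used 2 arrays. Young knockout liver had 1.05, 3.53 and 0.42 and older wild-type liver -0.60, -0.69 and -2.52. Non-tumor tissue had 0.97 and 0.03 at 8 months in animals 1347 and 934 (the spot of 1287 had no usable value) and 0.59, 0.35, 2.88 and 2.31 at 12 months, and tumors had 1.55, 3.03 and 0.45 at 8 and 2.01, 0.46, 3.06 and 1.68 at 12 months. Its tumor difference of 3.08 ± 0.79 (SE, adjusted p 0.06) missed the threshold, though no 12 month knockout sample overlapped wild type. Cdca8, borealin, which holds the complex together, had a narrower range. It was at -0.14 and -0.28 in young wild-type, -0.11, -0.37 and -0.21 in hemizygous and 1.08, 2.41 and 0.48 in young knockout liver and at -0.48, -0.80 and -1.46 in older wild-type liver. Non-tumor tissue had 0.80, 1.24 and 1.27 at 8 months and 0.54, -0.11, 2.23 and 1.44 at 12 months, and tumors 1.26, 1.45 and 1.17 at 8 and 1.5, 0.29, 2.64 and 1.01 at 12 months. Cdca8 rose in the tumors by 2.27 ± 0.49 (SE, adjusted p 0.046), and the other probe of Cdca8 gave 1.07.

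Motors and microtubule factors build the bipolar spindle. The 5 genes had median differences of 2.61, 2.16 and 2.94, and Tpx2 passed the threshold in the tumors. Tpx2 encodes the activator that targets Aurora A to microtubules. Young wild-type liver had -3.96 and -4.03, hemizygous liver -2.99, -3.63 and -4.70 and knockout liver -1.25, 0.34 and -2.20. Wild-type liver of 12 months had -3.30, -2.91 and -5.78, the last not well above background. Non-tumor tissue had -1.38, -0.82 and -1.95 at 8 months and -1.95, -2.62, 0.17 and -0.71 at 12 months, and tumors -0.64, -0.67 and -2.66 at 8 and -0.60, -1.96, 0.27 and -0.96 at 12 months. All knockout samples were above all others, and Tpx2 rose in the tumors by 3.18 ± 0.75 (SE, adjusted p 0.049). Nusap1, which bundles microtubules at chromosomes, was at -3.81 and -3.60 in young wild-type, -2.97, -3.29 and -4.78 in hemizygous and -1.52, 0.40 and -2.17 in young knockout liver. The older wild types had -2.62, -2.67 and -5.68, the last not well above background. Non-tumor tissue had -1.11, -0.46 and -2.69 at 8 months and -1.86, -2.28, 0.79 and -0.72 at 12 months, and tumors -0.37, -0.60 and -2.86 at 8 and -0.26, -1.69, 0.41 and -0.79 at 12 months. The samples of animal 934 lay below wild-type animals 552 and 641, and the 12 month samples lay above all wild-type samples of their age. The tumor difference of Nusap1, 3.08 ± 0.85 (SE, adjusted p 0.068), missed the threshold. Kif11, the motor that pushes spindle poles apart, was at least 3.96-fold higher in young knockout than in wild-type liver, but its other probe, well above background on 5 arrays, gave a difference of -0.21. Kif2c, which takes microtubules apart at kinetochores, was at least 4.91-fold higher and Dlgap5, a spindle assembly factor, at least 2.46-fold higher at 2 months. For Dlgap5 only 2 of 3 knockout arrays were well above background.

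Central spindle and cytokinesis proteins lead the cell through its last division step. The 6 genes had median differences of 2.18, 2.05 and 2.90, and Ect2, Prc1 and Kif20a passed the threshold in the tumors. Ect2 encodes an exchange factor that acts at the cleavage furrow. It was at -1.58 and -1.99 in wild-type, -1.42, -1.86 and -2.33 in hemizygous and -0.73, 1.04 and -1.81 in knockout liver at 2 months, where the groups overlapped. At 12 months wild-type liver had -2.02, -2.50 and -3.17. Non-tumor tissue had 0.26, 0.53 and 0.05 at 8 months and 0.10, -1.21, 1.12 and 0.68 at 12 months, and tumors 0.39, 0.69 and 0.00 at 8 and 0.83, 0.30, 1.99 and 0.33 at 12 months. Every older knockout sample was above every wild-type sample of 12 months. Its tumor difference of 3.43 ± 0.56 (SE, adjusted p 0.027) had the lowest adjusted p of the 41 genes, and the other probe gave 2.19. Prc1 encodes the protein that crosslinks antiparallel microtubules. Its levels were -1.51 and -2.07 in young wild-type, -1.28, -1.94 and -1.86 in hemizygous and 0.54, 2.24 and -0.18 in young knockout liver and -1.15, -1.90 and -3.61 in older wild-type liver. Non-tumor tissue had 0.91, 1.36 and -0.75 at 8 months and 0.54, -0.96, 2.6 and 1.46 at 12 months, and tumors 1.58, 1.58 and -0.55 at 8 and 2.27, 0.08, 2.87 and 0.91 at 12 months. No knockout sample overlapped wild type or hemizygous samples, and Prc1 rose in the tumors by 3.75 ± 0.79 (SE, adjusted p 0.045). Kif20a, a motor of the central spindle, was at -1.55 and -1.32 in young wild-type, -1.06, -1.55 and -2.18 in hemizygous and 0.89, 2.35 and -0.29 in young knockout liver. It was at -1.27, -1.16 and -2.86 in older wild-type liver. Non-tumor tissue had 1.09, 1.71 and -0.83 at 8 months and 0.32, -0.77, 2.08 and 1.54 at 12 months, and tumors 1.44, 1.78 and -0.96 at 8 and 1.76, 0.25, 2.82 and 1.38 at 12 months. Knockout samples were above all others here too, although animal 934 came close at -0.83 and -0.96. Kif20a rose in the tumors by 3.32 ± 0.75 (SE, adjusted p 0.046). Kif23 and Racgap1, the 2 subunits of centralspindlin, differed by 1.98 and 1.91 in the tumors, and anillin (Anln), which scaffolds the furrow, by 2.48, with -0.27 at its other probe.

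Chromosome structure and separation was the class with no call. Its 3 genes had median differences of 2.53, 1.38 and 1.94. Top2a, the topoisomerase that untangles sister DNA, was at -4.49 and -5.25 in young wild-type, -3.78, -4.15 and -5.04 in hemizygous and -2.71, -0.76 and -3.54 in young knockout liver, of which wild-type animal 34 was not well above background. Older wild-type liver had -4.20, -3.64 and -7.55, the last not well above background. Non-tumor tissue had -3.66, -2.01 and -3.37 at 8 months and -3.74, -3.27, -1.76 and -2.57 at 12 months, and tumors -2.34, -3.04 and -3.63 at 8 and -2.06, -2.94, -2.17 and -2.35 at 12 months. The tumors of 12 months were above wild type without overlap, with a difference of 2.75 ± 0.79 (SE, adjusted p 0.076), and the other probe gave 0.44. Espl1, separase, which cuts cohesin, was at least 8.33-fold higher in young knockout than in wild-type liver. Its spot had no usable value on wild-type animal 552, and the 12 month fits used 2 wild-type arrays for it. Pttg1, securin, which keeps separase inactive, was the gene that did not follow the others. It was at 4.10 and 3.86 in wild-type, 3.84, 3.49 and 4.19 in hemizygous and 2.65, 3.55 and 3.57 in knockout liver at 2 months, with every knockout sample below every wild-type one and a difference of -0.72 ± 0.81 (SE, adjusted p 0.87). Wild-type liver of 12 months had 3.63, 3.49 and -0.06, so that animal 1110 stood far below all other arrays. Non-tumor tissue had 2.68, 3.82 and 3.69 at 8 months and 3.92, 4.06, 3.35 and 3.54 at 12 months, and tumors 2.49, 3.54 and 4.27 at 8 and 3.37, 3.48, 3.23 and 2.56 at 12 months. Its positive difference in the 12 month comparisons, 1.36 ± 0.68 (SE, adjusted p 0.32) in non-tumor tissue, lies beside that single low array.

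The last class is ubiquitination machinery, of the anaphase-promoting complex and of SCF, another ubiquitin ligase. Its 3 genes had median differences of 2.62, 2.53 and 2.96, and Cdca3 passed the threshold in the tumors. Cdc20 encodes the activator of the anaphase-promoting complex that the checkpoint blocks. It was at -0.62 and -0.61 in young wild-type, -0.01, -0.63 and -1.85 in hemizygous and 2.52, 4.66 and 1.46 in young knockout liver, with a difference from wild type of 3.50 ± 1 (SE, adjusted p 0.32). The older wild types had 0.00, -0.29 and -2.22. Non-tumor tissue had 1.62, 2.36 and 0.28 at 8 months and 0.98, 0.60, 3.01 and 2.64 at 12 months, and tumors 2.00, 2.14 and 0.82 at 8 and 2.26, 1.04, 3.69 and 2.03 at 12 months. Every knockout sample was above every other sample. Cdc20 differed from hemizygous liver by 3.71 ± 0.89 (SE, adjusted p 0.21), the lowest adjusted p of the 41 in that comparison, and from wild type by 3.09 ± 0.77 (SE, adjusted p 0.052) in the tumors. Cdca3, which marks mitotic regulators for removal, was at -1.16 and -0.88 in young wild-type, -0.88, -1.40 and -1.73 in hemizygous and 0.53, 2.61 and -0.21 in young knockout liver. It was at -1.32, -1.66 and -2.30 in older wild-type liver. Non-tumor tissue had 0.16, 1.73 and -0.81 at 8 months and -0.30, -0.35, 2.01 and 1.72 at 12 months, and tumors 0.52, 1.62 and 0.13 at 8 and 1.5, -0.24, 2.49 and 1.06 at 12 months. The knockout samples lay above all samples of the other genotypes. Cdca3 rose in the tumors by 2.96 ± 0.71 (SE, adjusted p 0.049), with 1.31 at the other probe. Ube2c, the ubiquitin-conjugating enzyme of the complex, differed by 2.62 at 2 months and by 2.27 in the tumors and missed the threshold in both.

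Tumor and non-tumor tissue of the same animal were compared over 7 pairs, which asks whether the tumors differ from the liver around them. The mean of the pairs was above 0 in 40 of 41 genes, where 46.5% of all 24595 genes tested were, and the median difference was 0.34 against -0.02 over all genes. Pttg1 was the exception, at -0.30 ± 0.19 (SE, adjusted p 1). None of the 41 passed the adjusted threshold, as none of all genes did (0%), and 2 had an unadjusted p under 0.05 (2.35% of all genes, upward). These were Ccnb1, at 0.70 ± 0.20 (SE, adjusted p 1), and Cdc25c, at 1.17 ± 0.43 (SE, adjusted p 1). The 2 other probes of Ccnb1 gave 0.44 and 0.56. The Cdc25c probe used was well above background in 3 of 7 non-tumor samples. Its other probe, well above background on 6 arrays, gave -0.1. Ccnb1 differed by 0.92, 0.33 and 0.80 in the 8 month animals and by 1.62, 0.82, 0.49 and -0.10 in the 12 month animals. Cdc25c differed by 1.18, -0.34 and 2.63 and by 3.12, 1.31 and 0.26, with no difference at 2 decimals in animal 793. No gene of the 41 had the same sign in all 7 animals, where 0.626% of all genes were higher in all 7.

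The difference varied from animal to animal. In animal 1109 the tumor was higher in 40 of 41 genes with a median of 1.60, in 1347 in 39 with 0.58 and in 638 in 37 with 0.52. Animal 702 had 27 higher with a median of 0.14. Animals 1287 and 934 had 17 and 18 higher with medians of -0.02 and -0.05, and animal 793 had 10 higher with -0.43. Over all genes the tumor of animal 638 was higher in 60.4% with a median of 0.15, and that of 702 in 59.5% with 0.12. The other animals had 42.2% and -0.11 (1109), 39.5% and -0.21 (1347), 50% and 0 (1287), 48.5% and -0.02 (934) and 48.6% and -0.02 (793). Without animal 1109 the median over the pairs was 0.15. The tumor of animal 1347 was on another slide and scan day than its non-tumor tissue, and the part of this in its pair was not tested. All 4 animals of 12 months had higher Kif2c, Kif23 and Racgap1 in the tumor, and none had higher Pttg1. Cdc25c was also counted higher in all 4, though by 0 at 2 decimals in animal 793. These genes were picked from the 41 after their signs were seen, and the share of all genes with such signs was not counted. The tumor difference was larger at 12 than at 8 months in 36 of 41 genes, by a median of 0.29, while 58.6% of all genes were above 0. No gene of the 41 passed the adjusted or the unadjusted threshold in this test of ages (0% and 5.41% of all genes, upward), and without animal 1109 the median was -0.10.

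**Figure D4:**
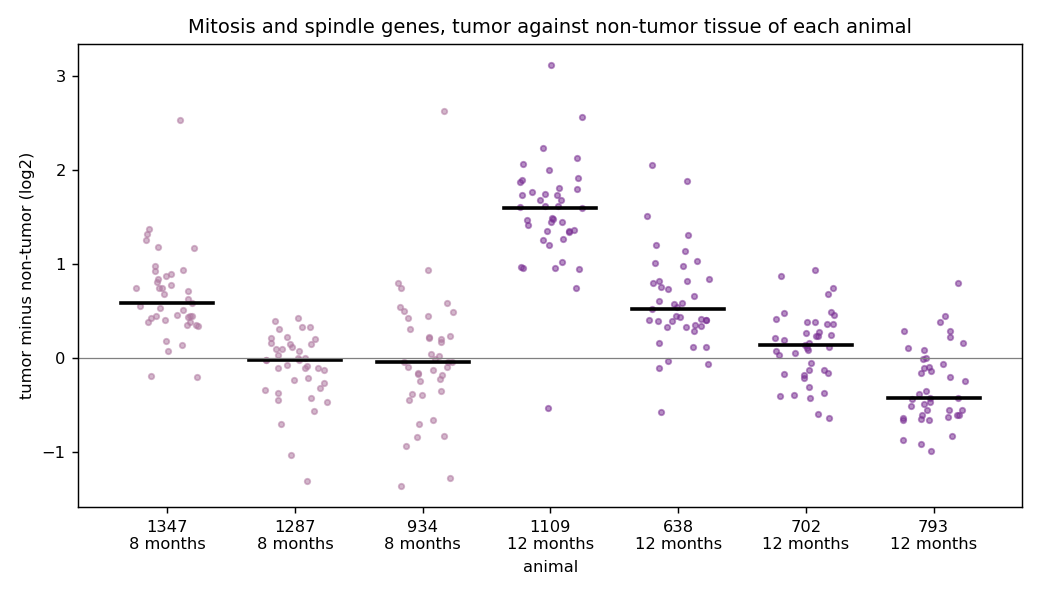
Tumor minus non-tumor level (log2, vertical axis) of each of the 41 genes in each of the 7 animals, with the median as a bar. Animal 1109 stands highest with a median of 1.60, and animals 1287, 934 and 793 have medians below 0.

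Median differences between ages of 1 genotype were smaller than those between knockout and wild-type liver. Wild-type liver of 12 months differed from that of 2 months by a median of -0.33, with 14 of 41 genes above 0 (48.5% of all genes), and without animal 1110 by 0.46. None of the 41 was called (0.0111% of all genes were, downward), and Cenpa alone was lower at an unadjusted p under 0.05 (5.75% of all genes). Non-tumor knockout liver of 8 months differed from young knockout liver by -0.36 (7 genes above 0, 49.1% of all genes), that of 12 months by -0.19 (8 above 0, 46.1% of all genes), and 12 from 8 months by 0.18 (31 above 0, 45.1% of all genes). Without animal 64 the first 2 medians were 0.32 and 0.52. No gene was called in any of the 3 (0%, 0% and 0% of all genes, upward), and in these 3 comparisons only Espl1 had an unadjusted p under 0.05, with -1.96 ± 0.83 (SE) at 8 against 2 months (7.51% of all genes, downward). The 12 month genotype difference exceeded the 2 month one by a median of 0.14, with 22 genes above 0 (47.2% of all genes) and Cenpa alone under an unadjusted p of 0.05 (4.76% of all genes, upward). This median was -0.55 without wild-type animal 1110 and 0.80 without knockout animal 64. Tumors of 12 months exceeded those of 8 months by a median of 0.51, with 39 genes above 0, where 59.6% of all genes were. None was called (0% of all genes), and none had an unadjusted p under 0.05 (1.59% of all genes, upward).

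A wider list of 100 further mitosis genes, 91 of them tested, had medians of 0.99 at 2 months, 1.13 in 12 month non-tumor tissue and 1.58 in 12 month tumors. In the tumors 17 of the 91 rose (0.672% of all genes did) and 1 fell (0.447% of all genes), Pmf1, a kinetochore subunit, by 1.33 on the log2 scale. The adjusted p of these 18 genes ran from 0.038 to 0.050, close under the threshold. Among those with the smallest p were Incenp (the scaffold of the passenger complex, 2.21 ± 0.39 SE, adjusted p 0.038), Ncapg2 (condensin II, 2.48 ± 0.52 SE) and Ckap2 (a spindle protein, 3.77 ± 0.79 SE), the last 2 with adjusted p 0.045. Of 42 genes of S phase and replication 41 were tested, and they had smaller medians, 0.37, 0.56 and 0.86, and 1 rose in the tumors, Pole (the catalytic subunit of DNA polymerase epsilon, 1.85 ± 0.43 SE, adjusted p 0.048). Regulators of these promoters, MuvB, MYB and E2F genes, had medians of 0.01, -0.01 and 0.12. Of the 22 tested in the tumors, Rbl1 (p107) rose in the tumors by 2.07 ± 0.41 (SE, adjusted p 0.045). E2f2, an activating E2F, rose in young knockout against hemizygous liver by 2.24 (adjusted p 0.030) and missed the threshold against wild type, at 2.29 ± 0.37 (SE, adjusted p 0.053). All these values are from the limma fits over all genes.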

How the data were processed

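RNA of 25 whole-liver samples from 18 mice was labelled with Cy3 and hybridised to single-colour Agilent arrays. The deposited scanner files hold a processed signal, an intensity from which, per the file headers, background and a spatial trend of each array had been removed. The deposited series table holds log2 values with scale and centring unstated. Its columns follow log2 of the uncorrected median signal (medians 6.56 to 6.58), and it served as an alternative. The submitters' processing notes name limma with no version. The array design of the files names the build mm8, none of whose coordinates is printed, and promoter windows are those of RefSeq on GRCm38.p6.

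Each level is the log2 of this signal after the 75th percentile of its array was subtracted on the log2 scale. Spots of a probe were averaged, control and outlier spots left out, and probes named by RefSeq accession (24375 of 41174 probes, 59.2%). Where a gene had several probes, that of highest mean signal was used. Unnamed probes stayed in the fits, and are counted among the genes tested. Tests were limma 3.58.1 in R 4.3.3, two-sided, with Benjamini-Hochberg adjustment over all genes at 0.05. The first fit used the 18 non-tumor arrays, the second the 14 paired arrays with the animal as a block, the third all 25 arrays with the animal as a random block (consensus correlation 0.42). Values of every sample are given for Mcl1, for the gene of each class with the highest mean level, for that with the smallest p in 12 month non-tumor tissue against wild type, and for the 12 called genes with the smallest p. The rule also took up to 4 genes with 1 sign in all 7 pairs, of which there were none, and up to 4 genes of smallest p from each of 3 other lists, of which 1 is not reported here. Pmf1, Lyz2, Acta2, S100a8, S100a9 and the further genes of each class were named after their values were seen. Animal numbers in the labels pair tumor with non-tumor tissue. Deviations of the same animal correlated at 0.14 to 0.62, and for animals 1347 and 793 another sample correlated more. Replicates are separate animals per the labels. The number of arrays limits the precision. The genes and lists were chosen with earlier results of these data known.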

Additional observations from a re-analysis of the deposited data

Results flagged for a closer look

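Cenpf, the large kinetochore protein, differed between tumor and non-tumor tissue by 1.87 on the log2 scale in animal 1109, while the other 6 animals lay between -0.44 and 0.40. The gap to the nearest animal was 0.63 of the whole range, above the 95% critical value of Dixon's test for 7 values. It was the only value to stand apart in this way among 48 sets of 4 samples and 22 sets of 7 pairs, of which chance marks about 1 in 20. These sets cover only the genes listed by sample, with Mcl1 and the median of the 41 genes in the sets of 4. The other genes were not checked in this way, among them Nek2, at 1.74 in animal 1109 and 0.46 in 702, the next highest. In animal 1109 the tumor was higher in 40 of 41 genes with a median of 1.60.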

How the results depend on the processing

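Medians of knockout against wild-type or hemizygous liver stayed above 0 under the alternatives tried. Medians near 0 crossed it in 3 comparisons, from -0.66 to 0.33 for genotype by age, from -0.92 to 0.41 for wild-type age and from -0.47 to 0.07 for hemizygous against wild type, and others did when 1 array was left out. Normexp (run on the median signal and median background, the columns at hand) with quantile normalization gave smaller medians, 0.77 for young knockout against wild type, 0.83 against hemizygous, 0.82 for 12 month non-tumor tissue and 1.08 for 12 month tumors. Slide as a block gave 1.19 at 2 months against wild type. In 12 month non-tumor tissue the number of genes called, 0, became 2 with the deposited series values, 5 with the filter on every array and 5 with the trend and robust options. In 12 month tumors the 16 calls became 8 with normexp, 7 with the percentile over probes detected on all arrays, 1 with no filter, 0 with the mean of a gene's probes, 2 with scan day as a block, 27 with trend and robust options and 0 with only the groups compared. With no replicate block (the animal left out of the model) 1 was called, and with slide as a random block, added after seeing the data, 0. The paired comparison called 0 with or without the animal as a block. Leaving out 1 array at a time gave medians of 1.63 to 2.88 for young knockout against wild type, 1.48 to 2.77 against hemizygous, -0.18 to 0.23 for hemizygous against wild type, 1.66 to 2.86 for 12 month non-tumor tissue and 2.08 to 3.36 for 12 month tumors. It gave -0.73 to 0.46 for wild-type age, -0.96 to 0.32 and -0.80 to 0.52 for 8 and 12 months against 2 months in knockout liver, -0.29 to 0.62 for 12 against 8 months and -0.55 to 0.80 for genotype by age. Leaving out 1 animal gave 0.15 to 0.45 for tumor against non-tumor tissue and -0.10 to 0.58 for its difference by age, and 0.16 to 0.73 came from leaving out 1 array for 12 against 8 month tumors. Calls ran from 0 to 20 in non-tumor tissue, with 20 without animal 638 and 0 without any of the other 17 arrays, from 0 to 18 in tumors and stayed 0 in the other comparisons. The share of all genes called was not counted for the alternative settings or with arrays left out, so these counts have no such share beside them. The called genes had adjusted p from 0.0065 to 0.24 over the alternatives other than leaving arrays out. Genes well above background on all arrays numbered 19, and 32 with the files' weaker mark of a positive and significant signal. A CHR before the start lay in 35.3% of the genes. Slide as a fixed block could not be estimated where the groups were linked neither by a shared slide nor through other groups, and was not run there. The cause of these changes was not tested.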

Other observations

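The S phase list did not follow the mitosis genes in every animal. Its 41 measured genes, among them replication licensing and fork genes, had their highest mean levels of all 25 arrays in animal 934, at 1.09 in non-tumor and 0.98 in tumor tissue, where the other 23 arrays lay between -1.19 and 0.70. The median of the mitosis genes in that animal was -2.15 and -2.44, the lowest of the 8 month samples in either tissue. In young knockout animal 64 both were high, at 0.70 for the S phase list and 0.40 for the mitosis genes. This pattern was noticed in the data and was not tested.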
